A study of Mus musculus with 4 samples.

Results

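Orexin, melanin-concentrating hormone (MCH), their receptors and prodynorphin were followed through the mouse hypothalamus. The 6 genes were listed by name: Hcrt, which encodes the precursor of both orexin peptides; Pmch, the precursor of MCH; Hcrtr1 and Hcrtr2, the orexin receptors; Mchr1, the MCH receptor of rodents; and Pdyn, the precursor of dynorphin. All 6 were found among the 32285 genes of the deposited matrices. Single-nucleus RNA-seq had been carried out on hypothalami of adult male mice, either wild-type (WT) or heterozygous for a point mutation in thyroid hormone receptor α1 (labelled TRα1+m and called mutant here), both on a C57/BL6NCr background. Each genotype was represented by 2 libraries, 1 from each of 2 experimental repeats, and each library held pooled nuclei of 3 mice. The mutation is present in every cell of the animal, and as a point mutation it cannot be checked from the Thra level. Since each library is a pool, the spread between libraries is a spread between pools and not between mice. Values are given throughout in the order WT repeat 1, WT repeat 2, mutant repeat 1 and mutant repeat 2.

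Orexin and MCH are made by separate, intermingled neurons of the lateral hypothalamus that project through most of the brain. Orexin neurons promote wakefulness, arousal and feeding and release dynorphin together with orexin, while MCH neurons are linked to sleep, feeding and energy storage. Both orexin receptors couple mainly to Gq and excite the cells that carry them; Hcrtr1 prefers orexin-A, whereas Hcrtr2 binds both peptides, and Mchr1 couples to Gi and Gq.

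Of 68190 deposited barcodes, 56386 carried a cell-type annotation from the submitters, and their nuclei held 51877331, 59112785, 55366391 and 47260127 unique molecular identifiers (UMIs, each standing for 1 captured RNA molecule). The main neuronal cluster, Neurons_1, comprised 35756 nuclei (9564, 8749, 10619 and 6824) with median depths of 3989.5, 5227, 3797 and 4833.5 UMIs per nucleus, so both libraries of repeat 2 were deeper. A total of 309 annotated barcode sequences occurred in more than 1 library. Neurons_2, with 852 of its 864 nuclei in mutant repeat 2, was left out of the comparisons.

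The promoters of both peptide genes are shown because the results below turn on the few nuclei rich in transcripts of these genes. Each sequence is the 250 bases before the annotated RefSeq start (GRCm38.p6), on the strand of the gene, and a TATAAA motif, searched on both strands, is in capitals. The Hcrt window lies at chr11:100762932-100763181 on the minus strand and the Pmch window at chr10:88090822-88091071 on the plus strand.
Hcrt: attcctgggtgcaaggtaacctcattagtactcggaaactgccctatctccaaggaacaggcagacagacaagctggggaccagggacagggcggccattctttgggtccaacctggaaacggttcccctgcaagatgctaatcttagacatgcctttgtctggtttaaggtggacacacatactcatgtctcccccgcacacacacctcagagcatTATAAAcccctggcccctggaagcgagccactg
Pmch: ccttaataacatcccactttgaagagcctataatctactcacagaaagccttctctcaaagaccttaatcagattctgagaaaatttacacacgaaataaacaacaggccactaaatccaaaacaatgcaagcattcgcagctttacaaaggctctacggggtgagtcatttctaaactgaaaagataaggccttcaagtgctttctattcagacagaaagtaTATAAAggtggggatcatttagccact
The first base of the motif is at position -33 of Hcrt and -27 of Pmch, counted back from the start. Of 32851 RefSeq promoter windows of the same length, 12.4% held TATAAA on either strand. On the strand of the gene, 2.31% held it within the last 40 bases, as both peptide genes did. The windows taken for Hcrtr1, Hcrtr2, Mchr1 and Pdyn did not hold these letters.

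In the GENCODE annotation of GRCm38, Hcrt (ENSMUSG00000045471) spans chr11:100761069-100762931 on the minus strand and Pmch (ENSMUSG00000035383) spans chr10:88091072-88092375 on the plus strand, each with 3 exons. Parpbp, on the opposite strand, overlaps 944 bases of Pmch, and whether reads were counted by strand is not given in the sources used here, so its values are uncertain. The receptors lie at chr4:130130217-130139359 (Hcrtr1, ENSMUSG00000028778, minus strand), chr9:76225880-76323856 (Hcrtr2, ENSMUSG00000032360, minus strand) and chr15:81235499-81238964 (Mchr1, ENSMUSG00000050164, plus strand). Pdyn (ENSMUSG00000027400) lies at chr2:129686565-129699844 on the minus strand.

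Hcrt and Pmch UMIs were detected at a low level in most cell types and reached high numbers in a small group of nuclei. Of the Neurons_1 nuclei, 63.8% had no Hcrt UMI, 25.6% had 1 and 9.74% had 2 to 4, while 109 nuclei had 5 to 9, 60 had 10 to 19, 56 had 20 to 49, 40 had 50 to 99 and 59 had 100 or more. The Pmch distribution had the same form, with 40.7% at 0, 32.0% at 1 and 24.4% at 2 to 4, then 543, 101, 73, 56 and 236 nuclei in the same 5 higher classes. Most nuclei with 20 or more Pmch UMIs thus had 100 or more, while those with 20 or more Hcrt UMIs were spread over the 3 upper classes.

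**Figure D1:**
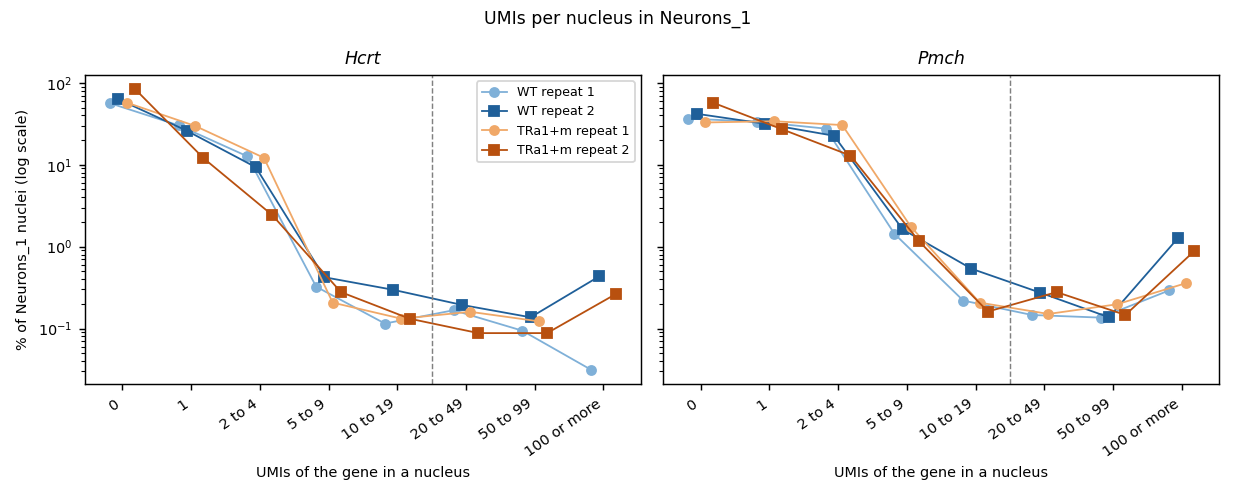
Share of Neurons_1 nuclei (percent, log axis) in each class of Hcrt and Pmch UMIs per nucleus, with 1 line per library and a dashed line at 20 UMIs; a class with no nucleus has no point. Over all libraries, 59 nuclei had 100 or more Hcrt UMIs and 236 had 100 or more Pmch UMIs, and mutant repeat 1 had no Hcrt nucleus in this class.

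The low values were not particular to neurons. After thinning to 1000 UMIs per nucleus, at least 1 Hcrt UMI remained in 23.8% of oligodendrocytes, which should not make orexin, against 12.04% of Neurons_1 nuclei (34.5% and 36.2% before thinning, at median depths of 1605 and 4380 UMIs). For Pmch the thinned shares were 41.6% and 22.5% (57.5% and 59.3% before thinning). A single UMI of either peptide was therefore read as background. In the sums of each library, Pmch UMIs outnumbered Hcrt UMIs 1.70 to 2.88 times in oligodendrocytes and 2.09 to 6.25 times in astrocytes. The ratio was 1.38 to 4.06 in oligodendrocyte precursors and 2.13 to 7.675 in microglia. In Neurons_1 nuclei with fewer than 20 UMIs of both it was 1.79 to 3.18, which overlaps these ranges. In the sum of the high nuclei it was 5.11 to 9.35. The highest astrocyte and microglia values, both of mutant repeat 2, also lay within that range. Nuclei with at least 20 UMIs were taken as Hcrt-high or Pmch-high.

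Hcrt-high neurons were rare in every library. They numbered 28, 67, 30 and 30, that is 155 in all, or 0.293%, 0.766%, 0.283% and 0.440% of Neurons_1 nuclei (exact binomial 95% intervals 0.195 to 0.423, 0.594 to 0.972, 0.191 to 0.403 and 0.297 to 0.627, for counting error only). WT repeat 2 stood highest, and its interval overlapped only that of mutant repeat 2. A Hcrt-high nucleus held a median of 45.5, 139, 44 and 112 Hcrt UMIs, and the largest numbers were 152, 759, 85 and 825. These nuclei carried 20.3%, 74.6%, 17.6% and 78.7% of all neuronal Hcrt UMIs, so in both libraries of repeat 1 most Hcrt UMIs came from nuclei below the limit. Near the limit, 21 nuclei had 15 to 19 and 13 had 20 to 24 Hcrt UMIs.

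Pmch-high neurons were more numerous. There were 55, 146, 75 and 89, together 365, corresponding to 0.575%, 1.67%, 0.706% and 1.30% of Neurons_1 nuclei. Both libraries of repeat 2 exceeded both of repeat 1. Median Pmch UMIs were 103, 420.5, 101 and 369 per high nucleus with maxima of 1761, 2869, 2002 and 4541, and the high nuclei held 42.2%, 90.0%, 49.9% and 91.2% of neuronal Pmch UMIs. Only 2 nuclei were high in both peptides.

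Hcrt-high nuclei lay mainly in a glutamatergic sub-cluster and not in the one named for orexin, while Pmch-high nuclei were divided between a glutamatergic sub-cluster and the MCH label. Of the 155 Hcrt-high nuclei, 113 (72.9%) were in Glutamatergic Neurons_2, where they made up 2.74% of nuclei, 17 in GABA Neurons, 13 in the sub-cluster labelled MCH Neurons, all from WT repeat 2, and 6 in Glutamatergic Neurons_1. None of the 227 nuclei labelled Orexin+ Neurons was Hcrt-high, which allows a share of up to 1.32%. Of the 365 Pmch-high nuclei, 186 (51.0%) were in Glutamatergic Neurons_1 (2.99% of it), 77 in the MCH label (3.69% of it), 48 in GABA Neurons and 19 in Glutamatergic Neurons_3. Without the high nuclei, Hcrt in Glutamatergic Neurons_2 was 110 CPM (UMIs of the gene per 1000000 UMIs of the summed nuclei), and Pmch was 211 CPM in Glutamatergic Neurons_1 and 328 CPM in the MCH label. Outside Neurons_1, 17 annotated nuclei were Hcrt-high (9 astrocytes, 7 oligodendrocytes and 1 oligodendrocyte precursor, OPC) and 60 were Pmch-high.

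**Figure D2:**
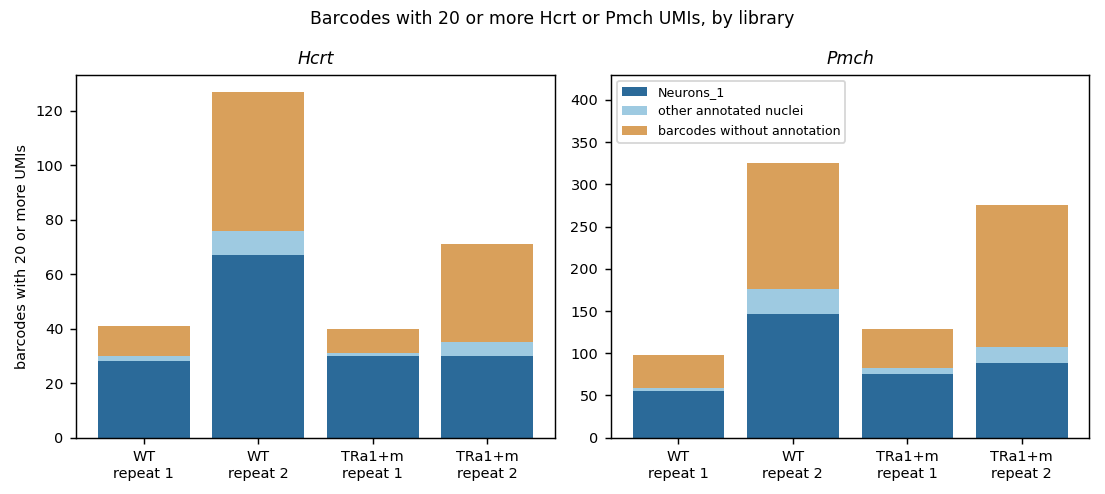
Number of barcodes with at least 20 Hcrt or Pmch UMIs in each library, stacked as Neurons_1 nuclei, other annotated nuclei and barcodes without an annotation. Unannotated barcodes added 11, 51, 9 and 36 for Hcrt and 39, 149, 46 and 168 for Pmch.

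Levels of each member were then set out over 17 groups: 12 neuronal sub-clusters and 5 other clusters. These levels are a description, since the same genes had made the clusters, and in a summed group fewer cells with a transcript cannot be told apart from less transcript per cell. Hcrt was highest in Glutamatergic Neurons_2, at 443, 1506, 440 and 919 CPM (827 ± 505, SD, n = 4 libraries here and below). The MCH label followed with 160, 1345, 139 and 174 CPM (455 ± 594), where WT repeat 2 alone was high, and oligodendrocytes were next with 404, 309, 376 and 196 CPM (321 ± 92.6). The Orexin+ label was last of the 17 groups, at 101, 54.0, 88.4 and 34.7 CPM (69.6 ± 30.6). At a median depth of 7387 UMIs, 38.3% of its nuclei held a Hcrt UMI, against 36.2% of Neurons_1 nuclei at 4380. Thinned to 1000 UMIs the shares were 8.37% and 12.04%, and NPY/AgRP Neurons were lower at 8.04%. The part of depth in this order was not tested. The ranges over libraries of all neighbours in this order overlapped. Mutant repeat 2 held the lowest Hcrt level of the 4 libraries in 14 of the 17 groups, oligodendrocytes included, and the highest in none. In OPC, WT repeat 2 was lowest.

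Pmch was highest in the MCH label at 1490, 18964, 2367 and 15145 CPM (9491 ± 8878), followed by Glutamatergic Neurons_1 at 818, 5151, 974 and 4664 CPM (2902 ± 2325). In both, each library of repeat 2 was above each of repeat 1. Microglia (914 ± 146 CPM), astrocytes (715 ± 79.9) and oligodendrocytes (693 ± 235) came next, at levels read here as background, and the remaining groups ran down to 204 ± 37.9 CPM in Oxytocin+, AVP Neurons. NPY/AgRP Neurons averaged 692 ± 886 CPM, of which mutant repeat 2 gave 2018 CPM and the other libraries 173 to 308. Neighbouring groups again overlapped throughout.

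**Figure D3:**
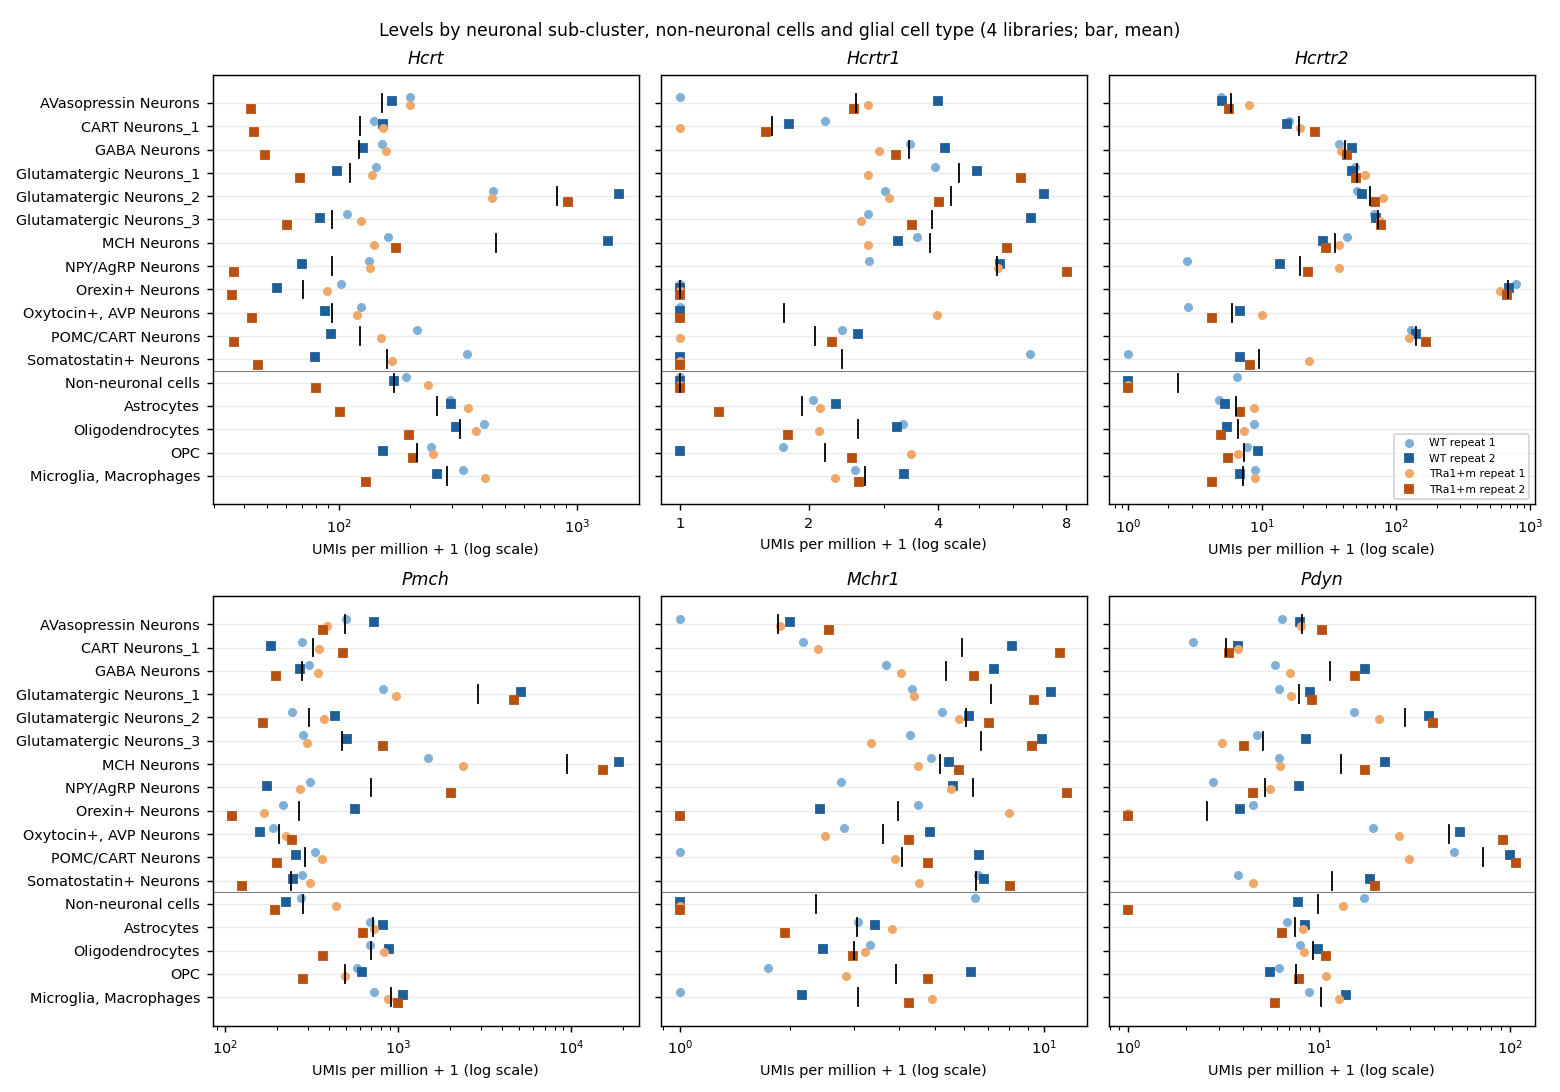
Level of each of the 6 members (CPM + 1, log axis) in 12 neuronal sub-clusters and 5 other clusters, with 1 point per library and a bar at the mean. Hcrtr2 stood at 595 to 775 CPM in the Orexin+ label against 124 to 165 in POMC/CART Neurons, while Hcrt in the Orexin+ label was 34.7 to 101 CPM.

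Hcrtr1, the orexin-A receptor, was scarce. It gave 456 UMIs in all of Neurons_1, at 2.22, 3.73, 1.77 and 2.84 CPM (2.64 ± 0.851). NPY/AgRP Neurons, the feeding-promoting cells of the arcuate nucleus, had the highest mean (4.49 ± 2.16 CPM) from only 11 UMIs, followed by Glutamatergic Neurons_1 (3.48 ± 1.497) and Glutamatergic Neurons_2 (3.30 ± 1.92). No UMI of it was found in the Orexin+ label or in the cluster named Non-neuronal cells. Glial groups had 0.928 to 1.71 CPM and overlapped most neuronal groups, so no order of Hcrtr1 was resolved at this depth.

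Hcrtr2, the receptor for both orexins, had the clearest pattern of the 6. It was measured with 9217 UMIs in Neurons_1, at 47.2, 56.3, 53.9 and 58.0 CPM (53.9 ± 4.74). In the Orexin+ label it reached 775, 689, 595 and 671 CPM (682 ± 73.7). POMC/CART Neurons, the melanocortin cells that restrain feeding, followed at 127, 139, 124 and 165 CPM (139 ± 18.4), and Glutamatergic Neurons_3 at 71.8 ± 3.86 CPM. Neither of these steps showed any overlap between libraries. Glutamatergic Neurons_2 (63.0 ± 13.2), Glutamatergic Neurons_1 (49.9 ± 5.02) and GABA Neurons (40.3 ± 4.17) came after, of which only the last pair did not overlap. Glial types stood at 5.40 to 6.28 CPM and AVasopressin Neurons at 4.90 ± 1.46.

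The 227 nuclei labelled Orexin+ (36, 80, 61 and 50) made up 0.635% of Neurons_1 but held 1253, or 13.6%, of its Hcrtr2 UMIs. Hcrtr2 was detected in 88.5% of these nuclei (42.3% when thinned to 1000 UMIs), and 152 of them (67.0%) held at least 3 UMIs, with a median of 5 and a maximum of 40. The data went against the name of this sub-cluster, since its leading gene over the mean of Neurons_1 was Hdc, histidine decarboxylase of histamine synthesis, at 974 ± 110 CPM. The genes next in rank were Slc16a10, Wif1, Prph and Slc26a4, and the first 10 also held Maob (330 ± 42.3 CPM), a monoamine-degrading oxidase, and Slc18a2 (512 ± 190 CPM), the vesicular monoamine transporter. Hcrtr2 was 17th in this ranking, and these leading genes were looked up after the values had been seen.

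The MCH label was likewise led by genes other than its peptide. Flt1, a vascular growth factor receptor (742 ± 382 CPM), ranked first, followed by Slco1a4, Cldn5, Adgrl4 and Rgs5, and Pmch was 42nd. The sum of 9 endothelial and mural markers, all detected, was 980, 3148, 2297 and 4399 CPM there. It was 13.3 to 30.8 CPM in Glutamatergic Neurons_1, 9.09 to 31.6 in Glutamatergic Neurons_2 and 14.2 to 31.4 in GABA Neurons. The sum of neuronal markers was 2446 to 2655 CPM in the MCH label, against 2987 to 3269, 3373 to 3653 and 3752 to 3884 CPM in these sub-clusters. Glial lists were higher in the MCH label too. Astrocyte markers summed to 701 to 1183 CPM, against 152 to 304 in Glutamatergic Neurons_1, and oligodendrocyte markers to 328 to 655 against 180 to 221. In Hcrt-high nuclei the endothelial and mural sum was 10.4 to 58.3 CPM with 3 of 9 markers at 0, and in Pmch-high nuclei it was 4.44 to 198 CPM with 1 at 0. In Glutamatergic Neurons_2 Hcrt had rank 4, behind Npvf, Gpr149 and Gm49171, and in Glutamatergic Neurons_1 Pmch had rank 4, behind Trh, Gm28526 and Sim1.

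Mchr1, the MCH receptor, was low and spread over many neurons, with 818 UMIs at 2.91, 6.65, 3.20 and 6.40 CPM in Neurons_1 (4.79 ± 2.01). The highest mean was in Glutamatergic Neurons_1 (6.12 ± 3.23 CPM), then Glutamatergic Neurons_3 (5.70 ± 3.35) and Somatostatin+ Neurons (5.50 ± 1.46), and the lowest in AVasopressin Neurons (0.859 ± 0.644). All neighbours overlapped, and glial types stood at 2.00 to 2.92 CPM.

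Pdyn, the opioid precursor, gave 2157 UMIs in Neurons_1, at 6.55, 18.8, 7.36 and 17.9 CPM (12.6 ± 6.58). POMC/CART Neurons led with 49.9, 99.3, 28.9 and 106 CPM (71.1 ± 37.8), Oxytocin+, AVP Neurons followed at 47.2 ± 33.1, and Glutamatergic Neurons_2, where most Hcrt-high nuclei were found, had rank 3 at 14.3, 36.8, 19.6 and 38.7 CPM (27.3 ± 12.2). The Orexin+ label was lowest, with 3 UMIs (1.58 ± 1.85 CPM). In each of the first 3 groups, both libraries of repeat 2 exceeded both of repeat 1.

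The genes whose log2(CPM + 1) ran most like each member over the 17 groups, among 13866 genes, were named as a description, since groups share libraries and depth. For Hcrt these were Npvf, a peptide of the dorsomedial hypothalamus (Pearson r = 0.883), Nr5a1 (0.842) and Fezf1 (0.839). For Pmch they were Srarp (0.864), Adgrf5, a vascular receptor (0.854), and the globin Hbb-bt (0.822), and for Pdyn they were Atrip (0.733), Gpr165 (0.716) and Sytl5 (0.714). Hcrtr2 was most like Gm35019 (0.888), Rapgef4 (0.876) and Syt2 (0.871). Hcrtr1 was nearest to Pcsk1n (0.922), Glra2 (0.882) and D430036J16Rik (0.820), and Mchr1 to Kcnq5 (0.833), B4galnt1 (0.832) and Tmem132e (0.828).

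The next comparison asked what Hcrt-high nuclei carry besides orexin. Within each library, they were set against the other Neurons_1 nuclei, with the library as a block, in edgeR's quasi-likelihood test with Benjamini-Hochberg adjustment over all 18091 genes tested. Of these, 514 were higher (2.84% of those tested) and 844 lower (4.67%). Pdyn was among those higher, with 46.9 CPM against 6.39, 140 against 17.7, 87.7 against 7.05 and 166 against 17.1 in the 4 libraries. The groups did not overlap, and Pdyn rose by 3.11 ± 0.22 on the log2 scale (SE; adjusted p = 5.41e-41, edgeR). It was detected in 65 of 155 Hcrt-high nuclei (41.9%) against 4.40% of the others. The others came from all sub-clusters of Neurons_1. In Glutamatergic Neurons_2, which held most Hcrt-high nuclei, Pdyn was 14.3, 36.8, 19.6 and 38.7 CPM over all its nuclei. Hcrt-high nuclei were not compared with the rest of that sub-cluster alone.

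The receptors did not pass the test in these nuclei. Hcrtr2 stood at 5.87 against 47.4 CPM, 44.3 against 56.4, 17.5 against 54.1 and 82.9 against 57.9, so it was lower in 3 libraries and higher in mutant repeat 2 (log2 difference -0.52 ± 0.25, adjusted p = 0.257, edgeR). Without mutant repeat 2 the difference was -0.98 (adjusted p = 0.0416), and with a limit of 10 UMIs it was -0.67 (adjusted p = 0.0429). Hcrtr1 was found in 0 of 155 Hcrt-high nuclei, which allows a share of up to 1.94%, against 1.23% of the others, a difference not detectable at this depth. Mchr1 was found in 6 of 155 (3.87%) against 2.20% (log2 difference 0.21 ± 0.71, adjusted p = 0.923).

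Pmch in Hcrt-high nuclei was 147, 7086, 169 and 119 CPM against 440, 1802, 577 and 1478 CPM in the others, and WT repeat 2 alone was higher. The Hcrt-high nuclei held 25, 3039, 29 and 23 Pmch UMIs, found in 18, 41, 18 and 17 of them. The 2 nuclei high in both peptides were thus of WT repeat 2, and their part in its sum was not tested. The log2 difference was -1.0045 ± 1.37 (adjusted p = 0.811, edgeR), and without WT repeat 2 it was -2.51 (adjusted p = 2.23e-13). Without the MCH label, which held 13 Hcrt-high nuclei of that library, it was -2.36 (adjusted p = 3.73e-54), an alternative chosen after seeing the data. The other nuclei in these fits included Pmch-high nuclei, which held much of the neuronal Pmch. In Neurons_1 nuclei with fewer than 20 Pmch UMIs, Pmch was 255, 188, 291 and 131 CPM. Whether Hcrt-high nuclei differ from those nuclei was not tested.

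Among genes of at least 50 CPM, the largest rises in Hcrt-high nuclei were in Lhx9, a LIM homeobox factor of orexin neurons (118 ± 23.96 against 2.31 ± 1.39 CPM, log2 5.65 ± 0.28), Gm867 (5.60), Rfx4, an RFX-family transcription factor (643 ± 201 against 15.6 ± 4.15 CPM, log2 5.26 ± 0.13), Gm13849 (4.77) and Csta2 (4.56). The largest falls were in Kcnh8, a potassium channel (-2.62), Tmem163 (-2.53), Pard3b (-2.50), Htr4, a serotonin receptor (-2.46), and Stk32a (-2.45). These rises and falls are differences from neurons of all sub-clusters mixed. The median log2 difference of all genes was -0.18, and -0.08 with another scaling of the libraries (RLE), under which 637 genes were higher and 628 lower. DESeq2 called 493 higher and 331 lower.

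Most listed genes known from orexin neurons rose with Hcrt. The gene lists were chosen with earlier results of these data known, so their counts and medians here and below are a description and not independent support. Of 10 listed, 7 rose and 1 fell (median log2 difference 1.91 against -0.18 for all genes): Pdyn, Lhx9, Rfx4, the imprinted zinc-finger factor Plagl1 (2.48), the pentraxin Nptx2 (2.28) and the granule proteins Scg2 (1.54) and Vgf (0.64) rose, and Ebf2 (-4.71) fell. Of 8 genes known from MCH neurons, none rose and 2 fell, Cartpt (-1.12) and Nptx1 (-1.47), with a median of -0.46. In the opioid system, Pdyn and the dynorphin receptor Oprk1 (1.14) rose, while the precursors Penk (-1.27) and Pnoc (-1.51) and the mu receptor Oprm1 (-1.01) fell, of 7 tested (median -1.01).

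Of 9 genes for peptide processing and granules, 4 rose and 3 fell (median -0.01). The prohormone convertase Pcsk1 rose by 2.66 on the log2 scale, from 44.7 to 306 CPM, Scg2 and Vgf rose as above, and the amidating enzyme Pam rose by 0.54, whereas Chga (-0.84), Scg5 (-0.66) and the carboxypeptidase Cpe (-0.42) fell. Among 11 effectors of orexin receptors, which act below Gq, 5 fell and none rose (median -0.42): the phospholipases Plcb1 (-1.62) and Plcb4 (-0.42), the channels Trpc4 (-1.56) and Trpc5 (-1.91), and Prkca (-0.70). Of 9 effectors of the MCH receptor, Gnai3 (0.72) rose and the adenylyl cyclase Adcy2 (-1.72) fell. With RLE scaling no listed call turned its sign, but Nptx1, Penk, Cpe and Plcb4 no longer passed, and Itpr1 passed as higher. DESeq2 turned no sign either and did not call these 4, nor Vgf, Pnoc and Gnai3.

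Markers of other cell types were summed beside these genes. The tanycyte list was 543 to 713 CPM in Hcrt-high nuclei, against 303 to 416 CPM in the other neurons, and the astrocyte list 140 to 261 against 170 to 362 CPM. Almost all of the tanycyte sum was Nnat (636 ± 78.3 CPM), a gene that neurons express too, while Rax, a defining tanycyte factor, was at 0 in every library of Hcrt-high nuclei and Col23a1 was 7.97 ± 9.20 CPM.

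Pmch-high nuclei differed from the other neurons in another member, Hcrtr2. They were compared in the same way over 18376 genes, of which 690 were higher (3.75% of those tested) and 908 lower (4.94%). Hcrtr2 was 9.28 CPM against 47.5, 27.9 against 56.8, 4.44 against 54.4 and 30.6 against 58.5. It was lower in every library without overlap, by -1.29 ± 0.20 on the log2 scale (adjusted p = 3.77e-09, edgeR), and it was detected in 7.40% of these nuclei against 14.3% of the others. Under the alternatives run, this difference ranged from -1.04 to -1.95 and passed the threshold in each.

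The other members did not pass in Pmch-high nuclei. Pdyn differed by -0.53 ± 0.34 on the log2 scale (adjusted p = 0.441), Hcrtr1 by 1.15 ± 0.54 (13 UMIs, adjusted p = 0.215) and Mchr1 by -0.66 (7 UMIs, adjusted p = 0.635), all in edgeR. Hcrt differed by -0.24 (adjusted p = 0.929), and without WT repeat 2 the difference was -1.20 (adjusted p = 6.05e-11). The other nuclei included the Hcrt-high nuclei, which raise their Hcrt level. Hcrt was 111, 680, 97.8 and 33.9 CPM in Pmch-high nuclei. In Neurons_1 nuclei with fewer than 20 Hcrt UMIs it was 142, 97.9, 144 and 41.2 CPM, a comparison that was not tested.

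The largest rises in Pmch-high nuclei were in Mup6 (log2 6.92), the growth factor Igf1 (305 ± 123 against 9.82 ± 1.26 CPM, log2 4.98 ± 0.11), Tacr3, the neurokinin B receptor (209 ± 80.5 against 7.46 ± 0.833 CPM, 4.81 ± 0.13), Cartpt, the CART peptide precursor (2064 ± 1004 against 105 ± 58.0 CPM, 4.41 ± 0.09), and Ccbe1 (4.25). The largest falls were in Pomc (-2.99), Fign (-2.09), Meis2 (-2.00), Sst (-1.99) and A830018L16Rik (-1.76). The other neurons included POMC/CART Neurons and Somatostatin+ Neurons, of which 3 and 1 nuclei were Pmch-high. No fit set Pmch-high nuclei against the rest of a single sub-cluster, so these falls hold only against the mixed neurons. The median of all genes was -0.09. RLE scaling gave 820 genes higher and 692 lower, and DESeq2 621 and 392.

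Of the 8 genes known from MCH neurons, 6 rose and 1 fell (median log2 difference 2.06 against -0.09 for all genes). These counts are again a description, since earlier results were known when the lists were chosen. Cartpt, Tacr3, Nptx1 (2.23), the zinc-finger factor Zic1 (1.89), Gad1 (0.41), an enzyme of GABA synthesis, and Parpbp rose, and the vesicular glutamate transporter Slc17a6 (-0.41) fell. Parpbp was 29.7 against 1.59 CPM (4.41 ± 0.31, adjusted p = 1.91e-42), but its reads and those of Pmch cannot be told apart where strand was not used. DESeq2 called 5 of the 8 higher and none lower, without Gad1 and Slc17a6. Of the 10 orexin neuron genes none rose and 4 fell, Plagl1, Rfx4, Scg2 and Slc17a6 (median -0.55), but Rfx4 was lost with RLE scaling and Plagl1, Rfx4 and Slc17a6 in DESeq2, which left 1 fall.

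The opioid list had no rise and 2 falls, Penk (-1.03) and Oprm1 (-0.91), with a median of -0.53. In peptide processing, the convertase Pcsk2 (2.37) and Chga (0.31) rose, and Scg2 (-0.58), Scg5 (-0.37) and Pcsk1 (-0.55) fell, of 9 tested. Pcsk1 did not pass with RLE scaling, and in DESeq2 Chga, Scg5 and Pcsk1 did not pass and Pam passed as higher. Pcsk1 was thus called higher in Hcrt-high and Pcsk2 in Pmch-high nuclei, each relative to the other neurons. Among the orexin receptor effectors, 6 of 11 fell and none rose (median -0.52): Plcb1, Plcb4, Prkca, Prkcb (-0.91), Itpr1 (-1.12) and Slc8a1. Of the MCH receptor effectors, Adcy5 (0.75) rose and Adcy1 (-0.92) fell. DESeq2 did not call Penk, Slc8a1 or Adcy1.

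**Figure D4:**
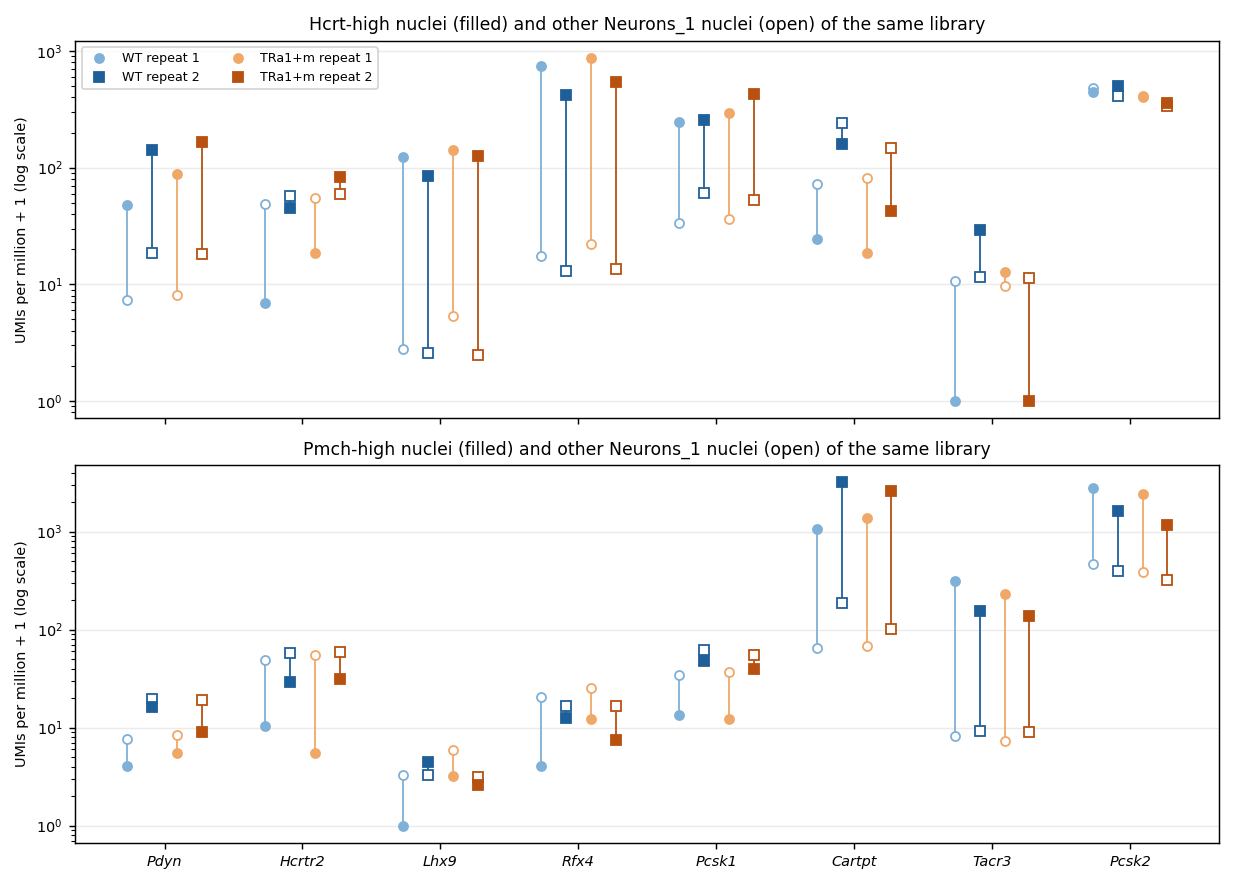
Level (CPM + 1, log axis) of 8 genes in Hcrt-high (top) and Pmch-high (bottom) nuclei, filled, joined to the other Neurons_1 nuclei of the same library, open. Pdyn, Lhx9, Rfx4 and Pcsk1 lay above the other neurons in all 4 libraries for Hcrt-high nuclei, and Cartpt, Tacr3 and Pcsk2 did so for Pmch-high nuclei, where Hcrtr2 lay below in all 4.

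The genotype comparison asked whether the receptor mutation alters these systems. No member passed the main test, which held genotype alone and not the repeat, in any cell type. Mutant and WT libraries were compared in the sums of 5 main cell types (13 of 69052 gene tests called, 0.0188%, all in oligodendrocytes) and of 12 neuronal sub-clusters (5 of 136098, 0.00367%), and 0 of 68 tests of members passed. After the filter on low counts, Hcrt and Pmch were tested in all 17 of these groups, Hcrtr2 in 12, Pdyn in 10, Mchr1 in 7 and Hcrtr1 in 5. In Neurons_1, Hcrt was 178, 382, 174 and 192 CPM (log2 difference, mutant against WT, -0.67 ± 0.35), where WT repeat 2 alone was high. Pmch was 438, 1849, 575 and 1470 CPM (-0.22 ± 0.75), so the libraries parted by repeat and not by genotype. The receptors and Pdyn differed by -0.44 ± 0.38 (Hcrtr1), 0.05 ± 0.14 (Hcrtr2), -0.06 ± 0.51 (Mchr1) and -0.07 ± 0.63 (Pdyn), each with an adjusted p of 1.00 (edgeR) and with overlapping groups. These standard errors include the difference between repeats. With the repeat as a block they were 0.34 (Hcrt), 0.26 (Pmch), 0.20 (Hcrtr1), 0.08 (Hcrtr2), 0.17 (Mchr1) and 0.13 (Pdyn). No member was called in Neurons_1 with the block either, and its calls in other groups are given below. In Neurons_1, 193 genes had an unadjusted p under 0.05 in the main test and 0 passed, against 1 in DESeq2.

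**Figure D5:**
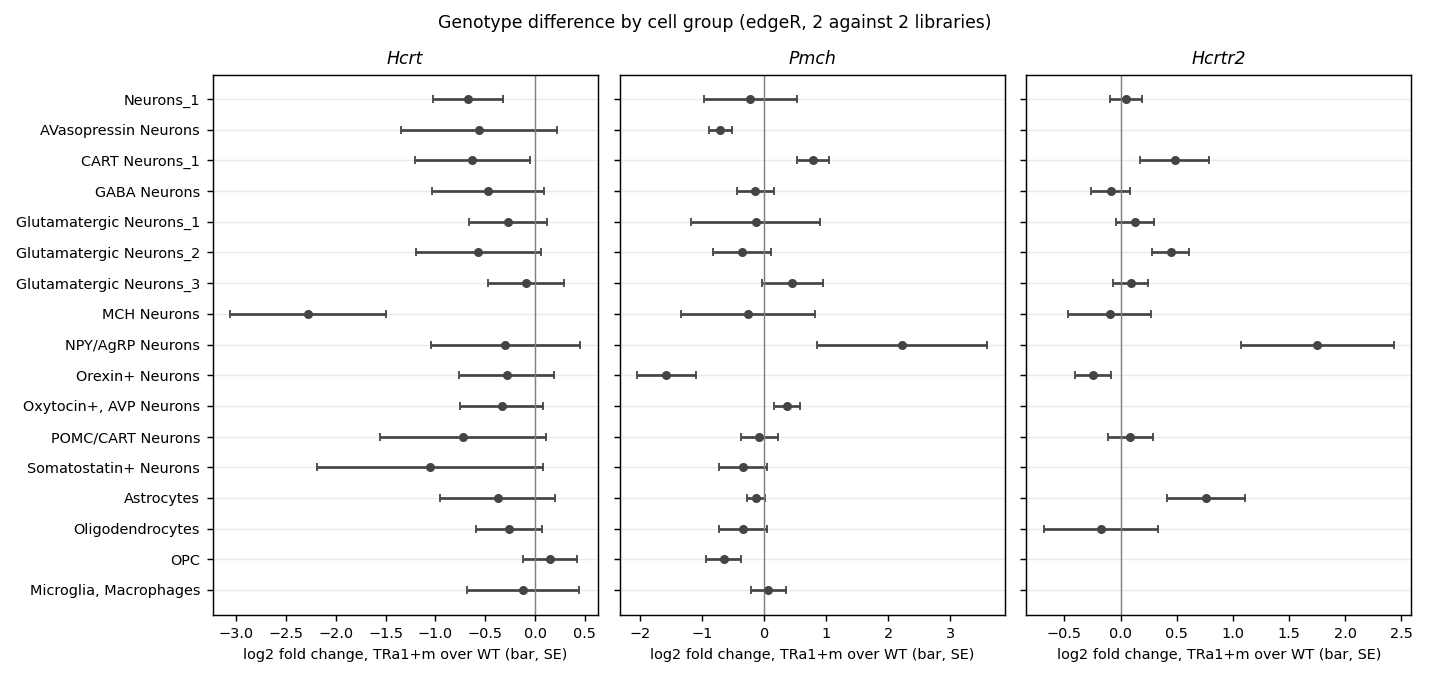
Log2 difference of Hcrt, Pmch and Hcrtr2 between mutant and WT libraries (point) with its standard error (bar, edgeR) in Neurons_1, its sub-clusters and the glial types, blank where the gene was not tested. In Neurons_1 the differences ran from -0.67 for Hcrt to 0.05 for Hcrtr2. The longest bars for Pmch were in NPY/AgRP Neurons (1.37), the MCH label (1.08) and Glutamatergic Neurons_1 (1.03).

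The largest sub-cluster differences did not pass the test either. Hcrt in the MCH label differed by -2.28 ± 0.78 on the log2 scale, where WT repeat 2 alone was high, and Pmch in NPY/AgRP Neurons by 2.22 ± 1.37, where mutant repeat 2 alone was high. Hcrtr2 in NPY/AgRP Neurons, with 40 UMIs, differed by 1.75 ± 0.68 (1.77, 12.7, 36.4 and 21.1 CPM; adjusted p = 1.00), and Pmch in the Orexin+ label by -1.58 ± 0.47. In that label 1 nucleus, of WT repeat 2, was Pmch-high, and without it the mean Pmch level over libraries was 152 in place of 265 CPM. Hcrtr2 in the Orexin+ label differed by -0.25 ± 0.16 (adjusted p = 1.00). When the repeat entered the fit as a block (1 residual degree of freedom), 841 of the main cell type tests (1.22%) and 572 of the sub-cluster tests (0.42%) were called. Among them were Pmch in OPC (-0.71, adjusted p = 1.12e-06) and in AVasopressin Neurons (-0.68, adjusted p = 2.62e-05), and Hcrt in POMC/CART Neurons (-0.82, adjusted p = 0.0026). These sums held some high nuclei: 4 Pmch-high in OPC, 6 Pmch-high in AVasopressin Neurons and 1 Hcrt-high in POMC/CART Neurons. Without the high nuclei, Pmch in AVasopressin Neurons averaged 291 CPM and Hcrt in POMC/CART Neurons 110 CPM. The parts of high nuclei and of background in these calls were not tested.

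The share of Hcrt-high neurons was 0.529 ± 0.334% in WT and 0.361 ± 0.111% in mutant libraries (SD, n = 2; ratio 0.682; exact permutation test, two-sided, p = 0.667, the smallest possible being 0.333). Within repeats the ratio was 0.965 and 0.574. It was 1.02 and 0.538 with a limit of 10 UMIs, and 0.976 and 0.615 with 50 UMIs. With 20 UMIs and 10 times background it was 1.05 and 0.574. After thinning to 2000 UMIs per nucleus, with a limit of 10, it was 0.935 and 0.665. The direction in repeat 1 thus depended on the limit. The share of Pmch-high neurons had a ratio of 0.896 (exact permutation p = 1), with 1.23 in repeat 1 and 0.782 in repeat 2, so its direction differed between the repeats. Within the high nuclei, 0 of 3918 genes differed by genotype in Hcrt-high and 0 of 7612 in Pmch-high nuclei (102 and 115 at an unadjusted p under 0.05; 30 and 6 with the block, edgeR; 0 and 0 in DESeq2). In the test of whether the genotype difference was itself different between Neurons_1 and astrocytes, 0 of 19214 genes passed (232 at an unadjusted p under 0.05 in edgeR; 0 passed in DESeq2). This fit had no term for the library, so the neuron and astrocyte sums of a library were treated as unpaired. The 6 gene lists had no member called in any genotype comparison under the main settings, the only ones in which the lists were counted.

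More genes were called between repeats than between genotypes in every main cell type, also with both in the model (5025 against 2 in Neurons_1). Single members did not always follow. With the repeat as a block, Hcrt in Neurons_1 differed by -0.58 between genotypes and Pmch in OPC by -0.71, beside the repeat differences below. In Neurons_1, with genotype in the model, 2391 genes were lower in repeat 2. A somewhat larger number, 2634 of 19926 genes (13.2%), were higher. Among them were Pdyn (log2 difference 1.36 ± 0.13, adjusted p = 0.000221), Mchr1 (1.06 ± 0.17, adjusted p = 0.00309) and Hcrtr1 (0.68 ± 0.20, adjusted p = 0.0371, but 0.267 in DESeq2). Pmch was 1.68 ± 0.26 higher without passing (adjusted p = 0.0712 in edgeR and 7.28e-05 in DESeq2), Hcrt 0.59 (adjusted p = 0.368) and Hcrtr2 0.14 (adjusted p = 0.231). In the glia, genes higher in repeat 2 numbered 1427 in astrocytes, 650 in oligodendrocytes, 644 in OPC and 337 in microglia. Of 49126 tests in these 4 cell types, 3499 (7.12%) were lower in repeat 2. Hcrt was among these in oligodendrocytes (-0.67, adjusted p = 0.00129), OPC (-0.54, adjusted p = 0.00197) and microglia (-1.01, adjusted p = 8.05e-05), and Pmch in OPC (-0.41, adjusted p = 0.007). Depth moved with the repeat as well, and its part in these differences was not tested.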

How the data were processed

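The deposited matrices hold raw UMI counts per gene and barcode, which the authors made with Cell Ranger 5.0.1 (per the submitters' processing notes) on the GRCm38 mouse reference with intronic reads included. The authors' annotation gives the cluster and sub-cluster of each kept nucleus, after their filters on UMIs (900), genes (700) and mitochondrial share (5%) and on doublet scores, so no doublet caller was run again. Barcodes without an annotation entered no test and were used only for the counts of such barcodes and the shares over all deposited barcodes. The members and gene lists were chosen with earlier results of these data known.

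Counts were summed per library and cell type. Tests used edgeR 4.0.16 (quasi-likelihood, robust, filterByExpr, TMM) in R 4.3.3 with Benjamini-Hochberg adjustment over all genes tested in that cell type and a threshold of 0.05. The fits were also run on simulated counts with a fixed dispersion and no repeat effect, a check that does not cover the repeat differences seen here. DESeq2 1.42.0, RLE scaling, no low-count filter, bias-adjusted deviances, other limits for high nuclei (10 or 50 UMIs, or 10 times background), leaving out each library and the repeat as a block were alternatives. Groups came from the GEO titles. A library's repeat number marks an experimental repeat that both genotypes share, and deviations of same-numbered libraries from their genotype mean correlated at r = 0.844 in Neurons_1, 0.758 in astrocytes, 0.622 in oligodendrocytes, 0.523 in OPC and 0.342 in microglia. The genes named were the members, the 3 genes most like each (over groups with at least 10 nuclei in every library, among genes of at least 10 CPM), the 5 largest changes per direction of at least 50 CPM, and listed genes. Sequences and promoters are from RefSeq, and figures were drawn in Python 3.11.15. Intervals and zero-count limits (3 counts) cover counting error only.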

Additional observations from a re-analysis of the deposited data

Results flagged for a closer look

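In sums over all nuclei of a type, the difference in Hcrt between repeats ran one way in Neurons_1 and the other way in oligodendrocytes, OPC and microglia. In Neurons_1 the log2 difference, repeat 2 against repeat 1, was 1.10 in WT and 0.14 in mutant libraries, whereas it was -0.39 and -0.94 in oligodendrocytes (mean difference between the cell types 1.29), -0.68 and -0.28 in OPC (1.10) and -0.37 and -1.66 in microglia (1.64). Between genotypes, mutant against WT, Hcrt moved by -0.03 in repeat 1 and -0.99 in repeat 2 in Neurons_1 and by 0.03 and 0.42 in OPC, a mean difference of -0.73. These were listed because every pair of libraries moved one way in one cell type and the other way in the other. Astrocytes were examined too and did not meet this rule. Their Hcrt difference between repeats was -0.89 ± 0.77 with genotype in the model (adjusted p = 0.622, edgeR). The differences between cell types were not tested. In Neurons_1 nuclei with fewer than 20 Hcrt UMIs, Hcrt was 142, 97.9, 144 and 41.2 CPM, lower in repeat 2 as in these glia, while in Hcrt-high nuclei it was 8980, 32407, 8019 and 27916 CPM.

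Many barcodes rich in peptide RNA carried no annotation. Among 11804 barcodes without an annotation, 107 held at least 20 Hcrt UMIs (11, 51, 9 and 36 in the 4 libraries). They were 38.4% of the 279 such barcodes in the files. For Pmch the number was 402 (39, 149, 46 and 168), or 48.6% of 827. These were 0.906% of unannotated barcodes against 0.305% of annotated nuclei for Hcrt, and 3.41% against 0.754% for Pmch. Of the 402, 306 had under 700 genes, 189 had under 900 UMIs and 115 had over 5% mitochondrial UMIs, and 41 passed all 3 limits. Of the 107, the corresponding numbers were 65, 54 and 38, and 19 passed all 3. Of all 11804 unannotated barcodes, 4034 passed all 3. Over all deposited barcodes, the Pmch share was 0.547%, 1.99%, 0.665% and 1.89%, with a mutant to WT ratio of 1.01, and the Hcrt share 0.229%, 0.778%, 0.206% and 0.488%, with a ratio of 0.689.

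Annotated nuclei outside Neurons_1 also reached this limit, 17 for Hcrt (up to 215 UMIs) and 60 for Pmch (up to 710 UMIs). The Pmch nuclei were 30 astrocytes, 13 oligodendrocytes, 7 microglia, 4 OPC and 6 Neurons_2 nuclei.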

How the results depend on the processing

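No member passed the genotype test under the main settings, and counts over all genes depended on the settings. The 13 calls in main cell types became 78 in DESeq2, 141 without the low-count filter, 841 with the replicate block and 1 to 270 when 1 library was left out (1 without WT repeat 2, 270 without mutant repeat 1). The 5 calls in sub-clusters became 103 without the filter, 572 with the block and 36 to 116 on leaving out a library. In Hcrt-high nuclei 0 became 3 without the filter, 30 with the block and 0 to 13 by leave-one-out (13 without WT repeat 1), and in Pmch-high nuclei 0 became 6 with the block and 1 to 4 by leave-one-out. Of the alternatives, DESeq2 gave 824 calls in place of 1358 for Hcrt-high nuclei, 1013 in place of 1598 for Pmch-high nuclei and 3919 in place of 11582 between repeats. A lone library left in an arm was assumed to vary like the others, and the repeat difference could not be run with a library left out, as no residual degrees of freedom remain.

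Leaving out 1 library turned the genotype difference of several members, and of the turned values 1 passed, Pmch in the MCH label without WT repeat 2 (adjusted p = 0.0348): Pmch in Neurons_1 ranged from -1.03 to 1.13 (log2), Hcrtr2 from -0.058 to 0.16, Mchr1 from -0.62 to 0.63, Pdyn from -0.82 to 0.85, Hcrt in POMC/CART Neurons from -2.12 to 0.0056, Hcrt in Glutamatergic Neurons_2 from -1.19 to 0.54, Pmch in Glutamatergic Neurons_1 from -1.65 to 1.70 and Pmch in the MCH label from -2.07 to 2.44 (0.13 with the block). The highest of these came without WT repeat 2, except for Hcrt in POMC/CART Neurons (without mutant repeat 2). Pmch in the Orexin+ label passed without the filter (-1.62) and without WT repeat 1, mutant repeat 1 or mutant repeat 2, fits that all keep WT repeat 2, the library with this label's 1 Pmch-high nucleus, and Hcrt in the MCH label passed without WT repeat 1 (-3.09). Hcrt in Glutamatergic Neurons_2 passed without the filter (-0.59). In Pmch-high nuclei Hcrt ranged from -1.20 (without WT repeat 2) to 0.17 (without mutant repeat 2). The cause of these changes was not tested. The difference in the share of Hcrt-high neurons, mutant minus WT, was -0.168 percentage points and -0.405 to 0.0683 on leaving out a library, and that of Pmch-high neurons -0.117 and -0.664 to 0.430, with 0.00805 over all deposited barcodes, an alternative chosen after seeing the data. The block changed no member's call other than the 3 given with the genotype results.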
